A study of Mus musculus with 8 samples.

Results

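The 38 genes described here encode the nuclear subunits of mitochondrial complex I, out of 56953 genes in the count matrix of a bulk RNA-seq of mouse brown adipose tissue (BAT). The rule that selects them uses the name and no measured value, although this gene family was picked with earlier results of these data known. It takes the symbols made of Ndufa, Ndufb, Ndufc, Ndufs or Ndufv and a number, together with Ndufab1, and leaves out pseudogenes. BAT was taken from C57BL/6J WT mice, described by the study as male or female, that were 8 to 10 weeks old when injected. Control (CTR) mice received PBS, whereas mice of the cancer-associated cachexia (CAC) group received 3000000 LLC cells, a transplantable mouse Lewis lung carcinoma line, in the same vehicle, and the animals were followed for 21 days. Each group held 4 libraries, and all tumors derived from 1 cell line. The study describes as many mice per group as there are libraries, but the labels do not tie each library to a mouse, and if some shared one, p-values would measure only the spread between these libraries, which may be technical.

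Complex I (NADH:ubiquinone oxidoreductase) is the entry point of the mitochondrial respiratory chain. Its matrix arm oxidizes NADH and passes the electrons along a flavin and a row of iron-sulfur clusters to ubiquinone, and its membrane arm pumps protons out of the matrix. Core subunits do the catalysis, of which 7 are encoded in the nucleus and 7 in mitochondrial DNA, and the accessory subunits surround them. In brown adipocytes the respiratory chain builds the proton gradient that UCP1 dissipates as heat. One gene of the family name, Ndufa4, is now assigned to complex IV (cytochrome c oxidase), so that 37 of the 38 genes encode complex I itself.

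Libraries held 2454493 to 4827956 counts in CTR and 1823167 to 3392538 in CAC, where 3 counts, up to which a gene read at 0 could still be present, equalled 0.66 to 1.62 CPM (reads per gene scaled to a common library size). This floor and all intervals on single libraries cover counting error only. The scaling of CPM includes the TMM factors of edgeR. CAC replicates 1 and 2 were the shallowest, both under 2000000 counts. All 8 libraries contained Ddx3y, a Y-linked gene, at 62.2 to 72.9 CPM, and Xist did not exceed 0.293 CPM, which is the pattern of male tissue in both groups. The 8 brown adipocyte markers, including Ucp1 and Cidea, were all detected and summed to 14896 to 16688 CPM in CTR and to 14672 to 16871 CPM in CAC, with 1 of them (Ppargc1a) called higher. Estimates were higher for 6 and lower for 2 of the 8. Ucp1, Cidea and Fabp4 make up most of the sum, and the means of Ucp1 (3965 CPM in CTR, 4059 CPM in CAC), Cidea (5869 and 6643 CPM) and Dio2 (77.7 and 127 CPM) were higher in CAC. The lower ones were Plin1 and Fabp4. Plin1, a lipid droplet coat protein, lay between 644 and 680 CPM in CTR and between 489 and 617 CPM in CAC, and Fabp4 had a mean of 3784 CPM in CTR and 3199 CPM in CAC.

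Markers of other cells differed between the groups in the same libraries. The summed level of 10 skeletal muscle markers was 1046 to 2666 CPM in CTR and 2266 to 4331 CPM in CAC, with 1 of them called higher. The 5 erythrocyte markers summed to 6180 to 19266 CPM in CTR and 14631 to 44312 CPM in CAC, with higher estimates for all 5. Of the 7 neutrophil markers 3 could be tested and all 3 were called higher, and the summed level of the list was 6.12 to 6.92 CPM in CTR and 163 to 430 CPM in CAC. S100a8 and S100a9, which other cells can also express, carried most of it in CAC, with means of 175 and 73.5 CPM. The granule genes Ngp, Camp and Ltf had CAC means of 2.21, 0.637 and 1.00 CPM, above CTR means of at most 0.159 CPM. The means of Retnlg (1.02 CPM in CTR, 10.7 CPM in CAC) and Csf3r (0.188 and 1.41 CPM) were also higher in CAC. Values near the floor of 3 counts, as for Camp, Ltf and Csf3r, are uncertain. The 8 macrophage markers summed to 203 to 229 CPM in CTR and 283 to 393 CPM in CAC, and 2 of the 7 tested were called. Endothelial markers (255 to 330 CPM in CTR, 208 to 295 CPM in CAC) and fibroblast markers (471 to 651 CPM in CTR, 397 to 612 CPM in CAC) overlapped, and lymphocyte markers stayed at or under 2.49 CPM with Cd3g at 0. The part of these cells in the results below was not tested, and in a bulk tissue fewer cells of a type cannot be told apart from less RNA per cell.

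To ask how the complex I genes were expressed in BAT of cachectic mice, each gene was compared between CAC and CTR. All 38 genes were detected in every library and passed the filter on low counts, and 30 of them had a lower and 8 a higher estimate in CAC. Ndufa4, the gene assigned to complex IV, was called lower at an adjusted p under 0.05 by the quasi-likelihood test of edgeR, with Benjamini-Hochberg adjustment over all 9876 genes tested, whereas none of the 37 complex I genes was called by edgeR. Of these 37 genes 12 were lower at an unadjusted p under 0.05, and DESeq2 called 2 of them, Ndufa8 and Ndufb3. Among all 23730 genes with an estimate, any given no adjusted p included, DESeq2 called 112 (0.472%). Over all genes tested by edgeR, 0.932% were called, 0.192% as lower and 0.739% as higher. By edgeR at an unadjusted p under 0.05, 13 of the 38 genes were lower and 0 higher, where 5.93% and 7.01% of all genes tested were. In 9 genes all CAC libraries lay below all CTR libraries, and in 0 all lay above, where this was so for 3.40% and 3.64% of all genes tested.

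The estimates were small. The median log2 fold change of the 38 genes was -0.11, against -4.7e-05 over all genes tested, of which 50.0% had an estimate below 0. Single genes ranged from -0.53 (Ndufa4) to 0.16 (Ndufa2), with standard errors of 0.088 to 0.150. The number of genes with a lower estimate was 29 to 33 under the other scalings of the libraries, which gave a median of -0.022 to 0.0066 over all genes tested. Counts of genes past a threshold depended on single libraries. Without CAC replicate 2, 8 genes were lower at an unadjusted p under 0.05, where 5.17% of all genes tested were in that fit. Without CAC replicate 1 or CAC replicate 4, 14 genes had groups that did not overlap in this direction, where the share of all genes tested was 5.73% and 5.49%.

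**Figure D1:**
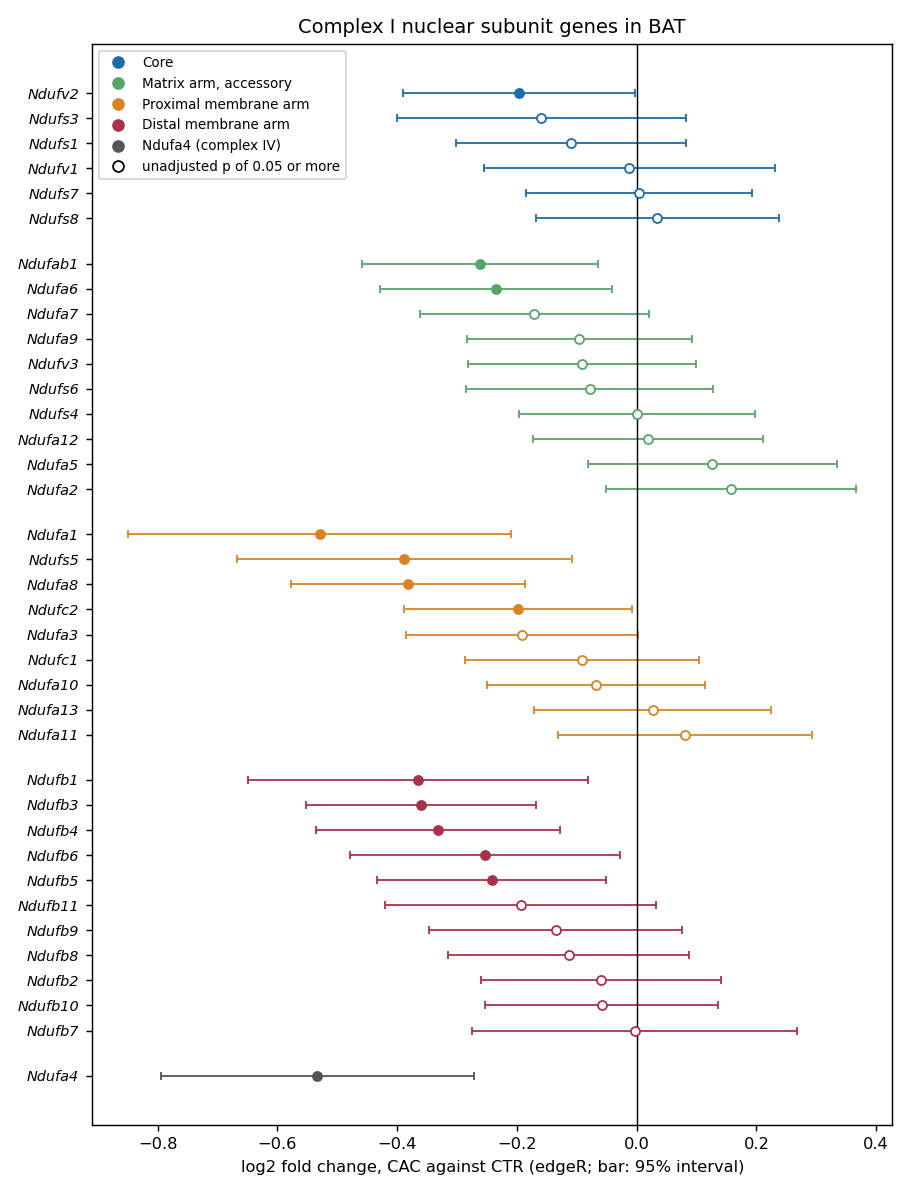
Log2 fold change of 37 of the 38 genes, Ndufa4 included, in CAC against CTR (x axis) with its 95% interval from edgeR, grouped by position in the enzyme (colors). Filled points have an unadjusted p under 0.05 and all 13 of them lie below 0, while all 11 distal membrane arm genes have an estimate below 0.

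**Figure D2:**
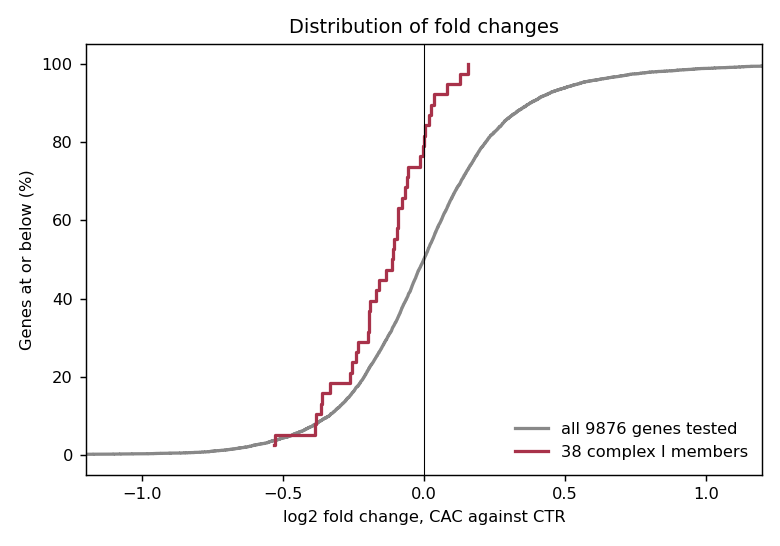
Share of genes (y axis, in percent) with a log2 fold change at or below the value on the x axis, for the 38 genes and for all 9876 genes tested. The 38 genes span -0.53 to 0.16 around a median of -0.11, and the curve of all genes crosses 50% at 0.

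The 7 nuclear core subunits had estimates from -0.20 to 0.03 and a median of -0.11. None was called by edgeR, 1 (Ndufv2) had an unadjusted p under 0.05, and the groups overlapped for all 7. The median was -0.06 without CAC replicate 3 and -0.07 without CTR replicate 4. Ndufv1 carries the flavin that accepts electrons from NADH. It was measured at 871, 808, 806 and 1070 CPM in CTR replicates 1 to 4 and at 909, 750, 791 and 1074 CPM in CAC replicates 1 to 4, with replicate 4 highest in both groups. Its log2 fold change was -0.01 (SE 0.12, adjusted p = 0.979), and the interval of the difference reached from -16.2% to 17.3%. Its partner Ndufv2, which holds an iron-sulfur cluster beside the flavin, had the lowest estimate of the core. It measured 300, 280, 276 and 266 CPM in CTR and 244, 238, 229 and 267 CPM in CAC, so that only CAC replicate 4 reached the CTR range. The log2 fold change of Ndufv2 was -0.20 (SE 0.093, adjusted p = 0.375).

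Further core genes encode subunits of the matrix arm between the flavin and ubiquinone. Ndufs1, the largest iron-sulfur subunit, lay between 298 and 331 CPM in CTR and 261 and 304 CPM in CAC (log2 fold change -0.11, SE 0.092, adjusted p = 0.670). The span of Ndufs1 was wider in CAC and overlapped that of CTR. Ndufs3, a subunit that links the matrix arm to the membrane, ranged from 209 to 274 CPM in CTR and from 186 to 257 CPM in CAC (-0.16, SE 0.12, adjusted p = 0.607). The estimate of Ndufs3 was -0.07 without CTR replicate 4 and -0.27 without CAC replicate 4. Ndufs8, with a pair of iron-sulfur clusters, ranged from 492 to 533 CPM in CTR and from 471 to 617 CPM in CAC (0.03, SE 0.098, adjusted p = 0.928), the highest value being CAC replicate 1. Ndufs7, which bears the last cluster before ubiquinone, measured 404, 396, 428 and 428 CPM in CTR and 448, 415, 374 and 425 CPM in CAC. Its difference of 0.32% had an interval from -12.0% to 14.3% (adjusted p = 0.99), and the sign of the estimate depended on the setting.

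Of the 10 accessory subunits of the matrix arm, 6 had a lower and 4 a higher estimate, with a median of -0.09, 2 lower at an unadjusted p under 0.05 and none called by edgeR. This median was -0.05 without CAC replicate 2 or CAC replicate 3 and -0.13 without CAC replicate 1. Ndufab1 is the mitochondrial acyl carrier protein and occurs in both arms. It was measured at 336, 342, 317 and 316 CPM in CTR and at 276, 269, 244 and 305 CPM in CAC, and the groups did not overlap. The log2 fold change was -0.26 (SE 0.095, adjusted p = 0.227). Ndufa6 belongs to the LYR protein family, whose members bind the acyl carrier protein. It measured 501, 545, 503 and 497 CPM in CTR and 474, 380, 428 and 456 CPM in CAC, again without overlap (-0.23, SE 0.093, adjusted p = 0.277). Ndufa7, an accessory subunit of the same arm, lay between 271 and 299 CPM in CTR and between 234 and 263 CPM in CAC (-0.17, SE 0.092, adjusted p = 0.451), and its groups did not overlap either.

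The matrix arm also held the genes with the highest estimates. Ndufa2, a small subunit with a thioredoxin-like fold, measured 1028, 1045, 1102 and 1168 CPM in CTR and 1420, 1252, 1024 and 1152 CPM in CAC (log2 fold change 0.16, SE 0.10, adjusted p = 0.547). Ndufa5, an accessory subunit of the same arm, ranged from 955 to 1176 CPM in CTR and from 1025 to 1323 CPM in CAC (0.13, SE 0.10, adjusted p = 0.642). In both genes CAC replicate 1 was highest, CAC replicate 3 was the lowest CAC library and the groups overlapped. Without CAC replicate 1 the log2 fold change was 0.08 for Ndufa2 and 0.07 for Ndufa5. Without CAC replicate 3 it was 0.23 and 0.18. Ndufs4, an accessory subunit whose loss causes Leigh syndrome, lay between 442 and 544 CPM in CTR and between 452 and 526 CPM in CAC, with an estimate of 0.04% and an interval from -12.7% to 14.7%. Estimates of the other genes of the arm, Ndufa9, Ndufa12, Ndufs6 and Ndufv3, were between -0.10 and 0.02.

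Among the 9 subunits of the proximal membrane arm, next to the joint with the matrix arm, 7 had a lower estimate, 4 of them at an unadjusted p under 0.05 (Ndufa8, Ndufa1, Ndufs5 and Ndufc2), and the median was -0.19. No gene of this group was called by edgeR. Ndufa8 encodes a subunit on the intermembrane space face, held by twin cysteine motifs. It was measured at 336, 325, 308 and 281 CPM in CTR and at 241, 231, 231 and 256 CPM in CAC. All CAC libraries lay below all CTR libraries, and the log2 fold change was -0.38 (SE 0.094, adjusted p = 0.0559), a difference of -23.3% with an interval from -33.0% to -12.2%. Under other settings Ndufa8 passed the threshold with upper quartile scaling, with either other filter, with DESeq2 and without CTR replicate 4.

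Ndufa1, an X-linked gene for a small membrane subunit needed for assembly, had the lowest estimate of the 37 complex I genes. It measured 238, 245, 172 and 179 CPM in CTR and 111, 132, 151 and 182 CPM in CAC, and CAC replicate 4 lay inside the CTR range. The log2 fold change was -0.53 (SE 0.15, adjusted p = 0.116). Ndufs5, another intermembrane space subunit with cysteine motifs, measured 148, 139, 91.3 and 116 CPM in CTR and 88.7, 101, 104 and 84.4 CPM in CAC, and CTR replicate 3 lay within the CAC range (-0.39, SE 0.13, adjusted p = 0.198). Ndufs5 passed the adjusted threshold without CTR replicate 3, Ndufa1 did so without CAC replicate 4, and both did so with no filter on low counts. Ndufa13, also known as GRIM19, had the largest p of the group and ranged from 566 to 701 CPM in CTR and from 587 to 684 CPM in CAC, with a difference of 1.86% (interval -11.2% to 16.8%). In Ndufc2 the groups did not overlap (306 to 337 CPM in CTR, 255 to 295 CPM in CAC), and its log2 fold change was -0.20 (SE 0.091, adjusted p = 0.360).

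All 11 Ndufb genes, which encode subunits of the distal membrane arm, had an estimate below 0, with a median of -0.19, 5 at an unadjusted p under 0.05 and none called by edgeR. The median was -0.14 without CTR replicate 1, -0.13 without CTR replicate 4 and -0.25 without CTR replicate 3. Ndufb3, a small membrane subunit of this arm, measured 456, 436, 393 and 434 CPM in CTR and 304, 328, 353 and 353 CPM in CAC. The highest CAC library lay below the lowest CTR library, and the log2 fold change was -0.36 (SE 0.093, adjusted p = 0.0675), a difference of -22.1% with an interval from -31.8% to -11.0%. It passed the threshold with DESeq2 and with no filter on low counts. Ndufb4, another membrane subunit, measured 231, 268, 254 and 247 CPM in CTR and 195, 174, 216 and 208 CPM in CAC, without overlap (-0.33, SE 0.098, adjusted p = 0.112). Ndufb1, the lowest of the Ndufb genes in CPM, measured 66.6, 68.4, 57.3 and 65.5 CPM in CTR and 43.8, 37.8, 54.8 and 61.7 CPM in CAC (-0.36, SE 0.14, adjusted p = 0.244), and CAC replicate 4 reached the CTR range. Ndufb5 had no overlap between 562 to 670 CPM in CTR and 470 to 543 CPM in CAC (-0.24, SE 0.092, adjusted p = 0.253), whereas Ndufb6 overlapped through CAC replicate 4 (-0.25, SE 0.11, adjusted p = 0.317). At the other end, Ndufb7, an intermembrane space subunit, measured 260, 234, 209 and 237 CPM in CTR and 268, 277, 227 and 168 CPM in CAC, with CAC replicate 4 lowest of all. Its difference of -0.20% had an interval from -17.3% to 20.4%, and the sign of the estimate depended on the setting (log2 fold change 0.14 without CAC replicate 4).

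Ndufa4 was the gene called. It measured 159, 143, 137 and 168 CPM in CTR and 80.5, 95.7, 115 and 126 CPM in CAC, so that the groups did not overlap. CAC replicates 1 and 2, the libraries with the fewest counts, were the lowest. The log2 fold change was -0.53 (SE 0.13, adjusted p = 0.0443), which corresponds to a difference of -30.9% with an interval from -42.4% to -17.2%. The call was kept in 2 of 8 fits that left out 1 library. The adjusted p of edgeR was 0.131 without CTR replicate 1, 0.0712 without CTR replicate 2, 0.106 without CTR replicate 4, 0.0854 without CAC replicate 1, 0.121 without CAC replicate 2 and 0.0706 without CAC replicate 3, against 0.0343 without CTR replicate 3 and 0.0237 without CAC replicate 4. The estimate stayed between -0.63 and -0.43 in these fits. The call was also lost without both libraries under 2000000 counts (-0.33, adjusted p = 0.203) and after trends with GC content and transcript length were removed (-0.49, adjusted p = 0.0532).

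**Figure D3:**
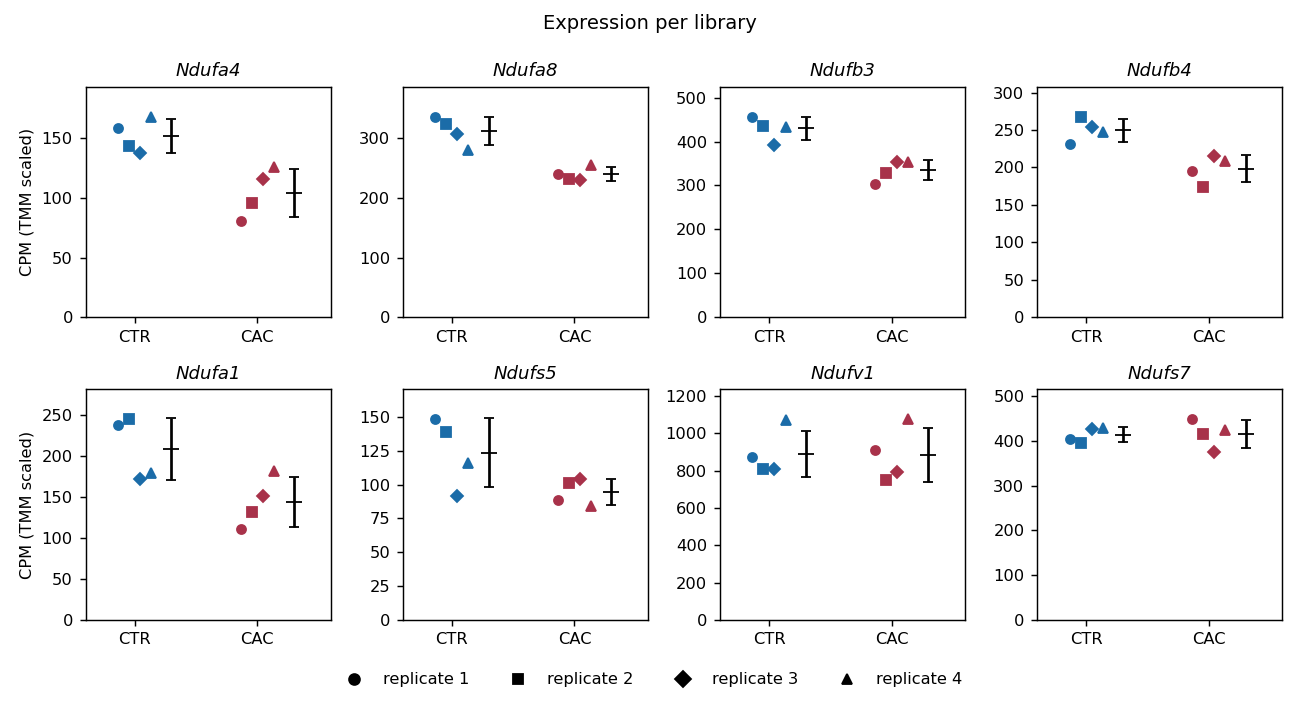
CPM (y axis, from 0) of 8 genes in each library of CTR and CAC, with the mean and SD of 4 libraries beside the points and a symbol for each replicate number. The groups do not overlap for Ndufa4, Ndufa8, Ndufb3 and Ndufb4, they overlap for Ndufa1 and Ndufs5, and for the core genes Ndufv1 (750 to 1074 CPM in CAC, 806 to 1070 CPM in CTR) and Ndufs7 (374 to 448 and 396 to 428 CPM) the CAC range encloses that of CTR.

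Transcripts of the 38 genes together made up 20440 ± 582 CPM in CTR and, in CAC, 19261 ± 1253 CPM (SD, n = 4 per group), a difference of -5.77%, or -5.58% over the 37 complex I genes without Ndufa4. CAC replicate 1, at 20849 CPM, lay inside the CTR range of 19877 to 21246 CPM. The distal membrane arm genes summed to 6258 ± 197 CPM in CTR and, in CAC, to 5616 ± 267 CPM (SD, n = 4 each), a difference of -10.3%, and the highest CAC library (5999 CPM) lay just below the lowest CTR library (6033 CPM). For the proximal membrane arm the sums were 4342 ± 51.9 and 4020 ± 247 CPM (SD, n = 4 each), a difference of -7.41% in which CAC replicate 1 (4291 CPM) reached the lowest CTR library (4285 CPM). The core genes differed by -3.77% and the matrix arm accessory genes by -0.67%, each by less than the SD of either group. The matrix arm difference depends on single libraries. CAC replicate 1 (7022 CPM) lay above and CAC replicate 3 (5719 CPM) below all CTR libraries (6087 to 6586 CPM). Differences between the arms were not tested, and abundant genes such as Ndufb8 weigh most in such sums.

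**Figure D4:**
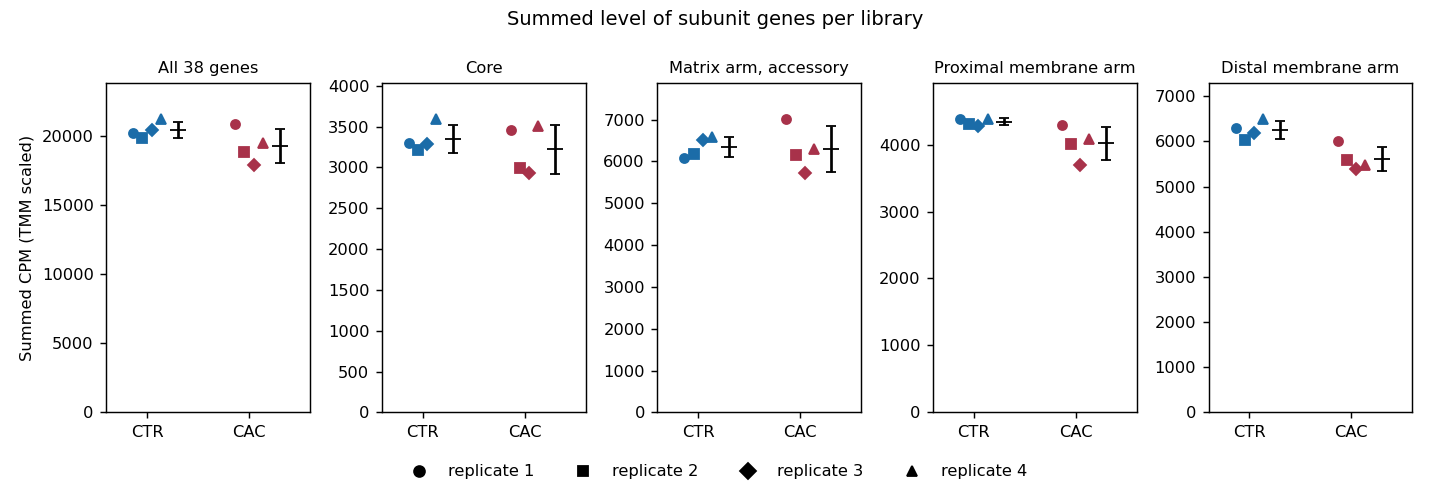
Summed CPM (y axis, from 0) of all 38 genes and of the 4 structural groups in each library, with mean and SD of 4 libraries. The CAC libraries lie below the CTR libraries for the distal membrane arm (at most 5999 against at least 6033 CPM) and overlap them in the other panels.

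The CAC libraries were not alike. In CAC replicate 3 all 38 genes lay below their CTR mean, with a median log2 difference of -0.23. In CAC replicate 2 there were 30 such genes (median -0.17), in CAC replicate 4 there were 28 (median -0.10), and in CAC replicate 1 there were 20 (median -0.05). Within CTR, 13 to 23 genes lay below the mean of their own group. CAC replicate 3 was thus lowest over the set as a whole, while CAC replicates 1 and 2 had the lowest values of Ndufa4 and Ndufa1. CAC replicate 1 combined the lowest Ndufa4, Ndufa1 and Ndufb3 of all libraries with the highest Ndufa2, Ndufa5, Ndufs8 and Ndufa11. CAC replicate 3 also had the highest summed skeletal muscle markers (4331 CPM) and CAC replicate 1 the highest erythrocyte and neutrophil markers (44312 and 430 CPM).

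**Figure D5:**
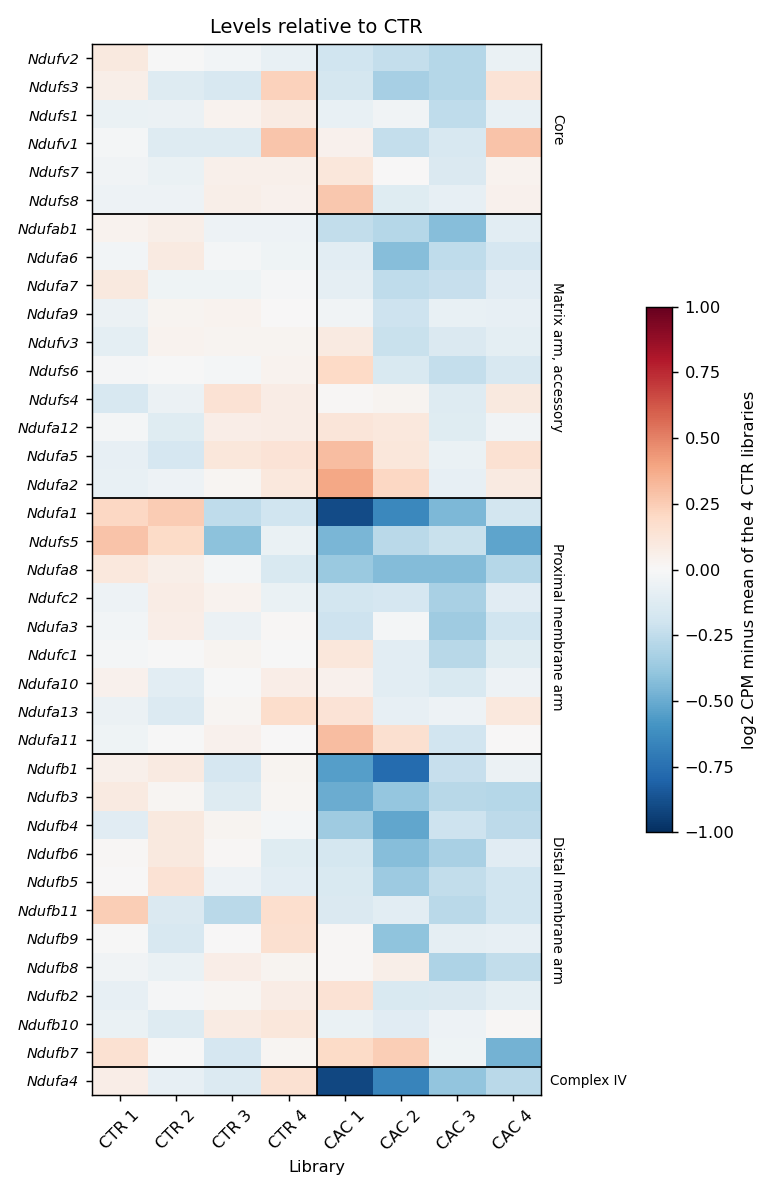
Log2 CPM of 37 of the 38 genes, Ndufa4 included (rows), in each library (columns) minus the mean over the 4 CTR libraries, from blue (lower) to red (higher), with structural groups separated by lines. The column of CAC 3 is below 0 in all 37 rows, whereas CAC 1 is below 0 in 20 rows.

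The 38 genes lie on 16 chromosomes of GRCm38. Ndufa4 is at chr6:11900292-11907497, Ndufa8 at chr2:36036326-36049406, Ndufb4 at chr16:37647170-37654453 and Ndufa1 at chrX:37187588-37191163, all on the minus strand, and Ndufb3 is at chr1:58586384-58595964 on the plus strand. Reads are counted over whole genes, so no exon or isoform is resolved. In CTR, levels per kilobase of the longest coding transcript ran from 63.1 CPM per kb for Ndufb2 to 1983 CPM per kb for Ndufb9, with a median of 498, where the median of the 9771 genes tested with a known length was 5.37 CPM per kb. The median transcript length was 944.5 bases for the 38 genes and 2979 bases for those 9771 genes, so division by length widens this gap. Whether reads scale with transcript length in this preparation is not given in the sources used here. Genes with a lower log2 fold change tended to have shorter and less GC-rich transcripts and a lower level per kilobase. Across the 38 genes Spearman's rho of the log2 fold change was 0.29 with transcript length, 0.34 with GC content and 0.32 with CTR level per kilobase, against 0.059, -0.017 and -0.095 across those 9771 genes. These values describe genes measured in the same 8 libraries, which are not independent replicates.

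Some reads could be shared with other genes. Fractions of reads were present in some library for 28 of the 38 genes, and 20 overlap another annotated gene, 6 of them on the same strand and 16 on the other strand. The strand setting of the counting is not given in the sources used here. The 10 genes with whole counts in all libraries, Ndufa4, Ndufa8 and Ndufa1 among them, all had a lower estimate, with 5 at an unadjusted p under 0.05. The 18 genes that overlap no other gene included 13 with a lower estimate and 7 at that level. Among genes whose fold change is given above, values are uncertain in this respect for Ndufc2 and Ndufa13, which overlap Gm16053 and Yjefn3 on the same strand, and for Ndufb1, Ndufb5, Ndufb6, Ndufab1, Ndufv2, Ndufs1, Ndufs3 and Ndufa2, which overlap a gene on the other strand, such as Cpsf2 for Ndufb1 and Kbtbd4 for Ndufs3. Genes without such an overlap can also carry fractions of reads, as Ndufs5, Ndufb4, Ndufa6 and Ndufs8 did in 5 libraries and Ndufb3 in 2, and their values are uncertain to that extent.

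Promoters are shown for the 5 genes with the smallest p, since these carry the lowest estimates relative to their error. Of the 38 genes, 34 matched the RefSeq promoter table (GRCm38.p6), which holds 250 bases before and 50 bases after each start. Letters of motifs bound by regulators of respiratory genes were searched on both strands. These were the palindromic NRF1 motif and the same motif with 1 free base, which includes the former, AAGGTCA for the estrogen-related receptors (ERR), CCGGAAG for ETS factors such as NRF2 (GABP), AAGATGGCG for YY1 and GGGCGG for SP1. Capitals in the sequences, written 5′ to 3′ in the direction of the gene, mark the matches.

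Ndufa4 (chr6:11907401-11907700, minus strand): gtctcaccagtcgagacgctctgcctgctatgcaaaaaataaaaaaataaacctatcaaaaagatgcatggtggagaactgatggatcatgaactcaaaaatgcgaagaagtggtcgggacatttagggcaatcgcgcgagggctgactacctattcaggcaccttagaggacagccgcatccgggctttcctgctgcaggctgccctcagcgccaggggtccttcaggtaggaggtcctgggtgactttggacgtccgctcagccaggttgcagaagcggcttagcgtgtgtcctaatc
Ndufa8 (chr2:36049289-36049588, minus strand): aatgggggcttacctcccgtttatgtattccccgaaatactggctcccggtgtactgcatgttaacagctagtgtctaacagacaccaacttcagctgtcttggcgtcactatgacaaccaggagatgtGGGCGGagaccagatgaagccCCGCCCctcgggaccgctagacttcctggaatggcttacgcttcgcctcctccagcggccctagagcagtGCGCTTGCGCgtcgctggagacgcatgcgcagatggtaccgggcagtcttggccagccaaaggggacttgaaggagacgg
Ndufb3 (chr1:58586147-58586446, plus strand): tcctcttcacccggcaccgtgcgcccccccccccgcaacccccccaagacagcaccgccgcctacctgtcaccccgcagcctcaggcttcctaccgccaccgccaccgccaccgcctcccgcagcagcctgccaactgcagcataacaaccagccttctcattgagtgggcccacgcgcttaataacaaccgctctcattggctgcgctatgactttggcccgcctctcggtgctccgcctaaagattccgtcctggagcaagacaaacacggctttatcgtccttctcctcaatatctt
Ndufb4 (chr16:37654319-37654618, minus strand): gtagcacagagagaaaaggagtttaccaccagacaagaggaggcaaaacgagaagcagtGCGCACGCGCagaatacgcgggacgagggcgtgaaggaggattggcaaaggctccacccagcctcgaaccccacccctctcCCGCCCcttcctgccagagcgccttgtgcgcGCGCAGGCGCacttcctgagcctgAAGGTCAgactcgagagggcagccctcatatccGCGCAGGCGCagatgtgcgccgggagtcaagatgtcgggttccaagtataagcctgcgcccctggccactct
Ndufa1 (chrX:37191189-37191488, minus strand): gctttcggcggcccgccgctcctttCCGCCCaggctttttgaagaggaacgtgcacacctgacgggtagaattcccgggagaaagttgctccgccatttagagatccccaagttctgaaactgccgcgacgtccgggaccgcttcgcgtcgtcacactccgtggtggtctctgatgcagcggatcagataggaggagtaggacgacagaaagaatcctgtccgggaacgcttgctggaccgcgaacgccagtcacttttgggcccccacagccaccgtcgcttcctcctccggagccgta

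The promoter of Ndufb4 held 3 matches of the NRF1 letters with a free base, 1 of ERR and 1 of SP1, that of Ndufa8 held 1 of NRF1 with a free base and 2 of SP1, and that of Ndufa1 held 1 of SP1. The windows of Ndufa4 and Ndufb3 held none of these letters. Over the 34 promoters, NRF1 with a free base was found in 7 (20.6%, against 4.60% of 32851 promoters of the same length), YY1 in 5 (14.7% against 1.40%) and ERR in 3 (8.82% against 4.72%). The exact NRF1 letters were found in 1 (2.94% against 0.971%), ETS in 4 (11.8% against 8.86%) and SP1 in 15 (44.1% against 35.7%). Both Ndufb4 and Ndufs5 held NRF1 with a free base and ERR. The genes with YY1 letters were Ndufa9, Ndufc1, Ndufs4, Ndufs6 and Ndufs7, and none of them had an unadjusted p under 0.05. A match describes letters in the window and is not evidence that a factor binds there.

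The genes that build complex I and the mitochondrially encoded core were compared in the same fit. Of 19 assembly factors listed, 17 could be tested, 15 had a lower estimate, 1 at an unadjusted p under 0.05, and none was called by edgeR, with a median of -0.13. Timmdc1, an assembly factor of the membrane arm, measured 14.4, 18.4, 13.3 and 16.1 CPM in CTR and 9.73, 13.8, 9.96 and 11.5 CPM in CAC (log2 fold change -0.49, SE 0.19, adjusted p = 0.265). Ndufaf6 was next by p, with 8.79 to 10.4 CPM in CTR and 4.79 to 9.19 CPM in CAC (-0.47, SE 0.24, adjusted p = 0.423). The groups overlapped for both. Of the 7 mitochondrially encoded ND genes 4 had a lower estimate, 1 at an unadjusted p under 0.05, and none was called. Among them mt-Nd3, a membrane subunit near the ubiquinone pocket, measured 1983, 2044, 1792 and 1914 CPM in CTR and 1318, 1552, 1571 and 1615 CPM in CAC, without overlap (-0.35, SE 0.092, adjusted p = 0.0731). The value of mt-Nd4l rested on CAC replicate 3, at 8158 CPM, where the 7 other libraries lay between 500 and 855 CPM (2.18, SE 1.05, adjusted p = 0.464).

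In the other respiratory complexes most estimates were also below 0. Over all genes tested by edgeR, 0.192% were called lower and 5.93% were lower at an unadjusted p under 0.05. In 3.40% all CAC libraries lay below all CTR libraries. All 4 genes of complex II were lower without a call, 2 at an unadjusted p under 0.05, with Sdhc at 134 to 173 CPM in CTR and 90.3 to 132 CPM in CAC (-0.46, SE 0.13, adjusted p = 0.101) and Sdhd, a low gene, at 6.39 to 24.2 CPM in CTR and 4.69 to 7.57 CPM in CAC (-1.34, SE 0.48, adjusted p = 0.280). In complex III 8 of 9 nuclear genes had a lower estimate, 4 at that level, and none was called, with Uqcrb at -0.33 (SE 0.11, adjusted p = 0.161) and Cyc1, encoding cytochrome c1, at -0.24 (SE 0.092, adjusted p = 0.250). In complex IV 11 of 13 were lower, 6 at an unadjusted p under 0.05 and 6 without overlap, and Cox7c, a small accessory subunit, was called. Cox7c measured 876, 896, 735 and 689 CPM in CTR and 471, 515, 570 and 603 CPM in CAC, without overlap (-0.56, SE 0.11, adjusted p = 0.00998). The adjusted p of Cox7c was 0.0570 without CTR replicate 1 and 0.0047 to 0.0431 without any other single library, and it was 0.0672 without both libraries under 2000000 counts. Cox5a followed at -0.26 (SE 0.086, adjusted p = 0.181), also without overlap. In ATP synthase 12 of 17 nuclear genes were lower, 4 at an unadjusted p under 0.05, and none was called, with Atp5b, the catalytic beta subunit, at -0.33 (SE 0.091, adjusted p = 0.0881) and Atp5md at -0.32 (SE 0.10, adjusted p = 0.143). All CAC libraries lay below all CTR libraries for 1 gene of complex II, 2 of complex III, 6 of complex IV and 3 of ATP synthase. The medians were -0.28 for complex II, -0.08 for complex III, -0.17 for complex IV and -0.08 for ATP synthase, beside -0.11 for the 38 genes.

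Estimates for regulators of respiratory genes lay on both sides of 0. Of 14 listed 11 were tested, 6 with a lower and 5 with a higher estimate. Ppargc1a, the coactivator of mitochondrial biogenesis known as PGC-1α, rose in CAC, from 43.9, 44.7, 52.3 and 66.4 CPM in CTR to 106, 65.9, 91.1 and 82.3 CPM in CAC (log2 fold change 0.73, SE 0.15, adjusted p = 0.0201), although CTR replicate 4 lay marginally above CAC replicate 2. The call of Ppargc1a was lost without CTR replicate 1 (adjusted p = 0.0877), CTR replicate 2 (0.0751) or CAC replicate 3 (0.0875). Its relative Ppargc1b ranged from 111 to 165 CPM in CTR and from 144 to 166 CPM in CAC (0.22, SE 0.12, adjusted p = 0.466). Of 8 genes with a related symbol that the naming rule leaves out, 4 were tested and all had a lower estimate without a call. The nearest to the threshold was Ndufs5-ps, a pseudogene of Ndufs5 whose reads may be shared with it, at 32.4 to 38.5 CPM in CTR and 19.2 to 32.2 CPM in CAC (-0.33, SE 0.16, adjusted p = 0.375). Ndufb4c was next, at 5.51 to 9.32 CPM in CTR and 3.49 to 6.15 CPM in CAC (-0.56, SE 0.28, adjusted p = 0.410).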

How the data were processed

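BAT RNA from 4 CTR and 4 CAC libraries was sequenced single-end after a digital mRNA-seq preparation. Per the labels and the study's methods, the authors checked reads with FastQC 0.11.9, aligned them to mm10 with HISAT2 2.2.1 and counted them with featureCounts including multi-mapping reads. The deposited matrix holds expected counts, with fractions of reads and no normalization. The authors also deposited a normalized signal of 24792 genes made with DESeq2, which holds all 38 genes and was used for limma only. Coordinates are those of GENCODE M21, matched by ID without version (91.354% of IDs).

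Counts were rounded and analyzed with edgeR 4.0.16 in R 4.3.3 (filterByExpr, TMM, robust quasi-likelihood, no covariate, threshold 0.05). DESeq2 1.42.0, limma 3.58.1 (pseudocount 1, signal of at least 5 in 4 libraries), other scalings, filters and left-out libraries were alternatives, and the test was tested on simulated data. At a simulated log2 fold change of -0.5 edgeR called 10 of 92 genes, or 6 of 23 with a mean of at least 50 CPM. It called 83 of 100 genes at 1 and 6 of 9455 at 0. Precision follows the counts per library given above. Members and lists were chosen with earlier results of these data known, and some list symbols were adapted to the table. Named in full were called genes, the core subunits, of which 1 is not reported here, and in each structural group the 3 smallest and the largest p, and in each list called genes and the 2 smallest p. Other genes named, such as Ndufa2, Ndufa5, Ndufc2, Ndufb5 and Ndufb6, were chosen after their values were seen.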

Additional observations from a re-analysis of the deposited data

Results flagged for a closer look

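In 2 of 76 groups of 4 values (38 genes in CTR and in CAC) a library stood apart from the others by Dixon's criterion, where chance gives about 3.8. Ndufa6 was at 544.9 CPM in CTR replicate 2, above 497 to 502.9 CPM in the other CTR libraries. Ndufv3 was at 1030 CPM in CTR replicate 1, below 1120 to 1129 CPM in the others.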

How the results depend on the processing

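Ndufa4 stayed below 0 in all 8 fits without 1 library and all 12 other settings. The number of the 38 genes called, beside the share called of all genes tested in the same fit, was 2 with upper quartile scaling (0.871%), 2 with at least 10 counts in every library (0.929%), 5 with no low-count filter (1.48%), 3 with DESeq2 (0.472%), 3 at an adjusted p under 0.1 (1.85%) and 0 to 2 when 1 library was left out (0.414% to 1.33%). The share for DESeq2 is over 23730 genes with an estimate, including any given no adjusted p, and is not directly comparable with the others. The number called was 0 with GC content and length trends removed (1.05%) and 0 without both libraries under 2000000 counts (0.883%). Under these last settings 11 and 12 of the genes were lower at an unadjusted p under 0.05 by edgeR, where 5.78% and 5.59% of all genes tested were, and both settings were chosen after seeing the data. The cause of these shifts was not tested. Without both shallow libraries 18 genes did not overlap (11.2% of all genes tested) and the median log2 fold change was -0.17. Without 1 library 9 to 14 genes did not overlap (4.81% to 5.79% of all genes tested) and 8 to 14 were lower at an unadjusted p under 0.05 (4.10% to 6.16%). The number of genes with a lower estimate was 28 to 34 under every setting run.

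Summed CPM were 29565 in CTR and 27059 in CAC without mitochondrially encoded genes, which shrinks the totals, and 4280 and 3875 over the 10 genes without fractions of reads, which sums fewer genes. Correlations between CTR and CAC libraries were -0.023 to 0.036 for the same replicate number and -0.053 to 0.036 for different numbers. Such values show no clear pairing by number but cannot exclude a shared batch. A replicate block gave 140 calls against 92, with Ndufa4 called, 11 of the 38 genes lower at an unadjusted p under 0.05 (5.78% of all genes tested) and 9 not overlapping (3.40%).

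Estimates near 0 changed sign, and the cause was not tested. With library size only, Ndufs7 was at -0.0081 and Ndufs4 at -0.0094. With upper quartile scaling, Ndufa12 was at -0.0040, Ndufs7 at -0.018 and Ndufs4 at -0.022. Without mitochondrially encoded genes Ndufb7 was at 0.0019, and Ndufs4 was at -0.00071 without the 10 most abundant genes, -0.0013 with at least 10 counts and -0.00013 with DESeq2. With no filter, Ndufa13 was at -0.00094, Ndufa12 at -0.0093, Ndufs7 at -0.023 and Ndufs4 at -0.027. Without both shallow libraries, Ndufa11 was at -0.091, Ndufs8 at -0.022, Ndufa12 at -0.081, Ndufv1 at 0.068, Ndufs7 at -0.052 and Ndufs4 at -0.017. Leaving out 1 library gave -0.046 to 0.082 for Ndufs8, -0.021 to 0.096 for Ndufa13, -0.023 to 0.062 for Ndufa12, -0.12 to 0.097 for Ndufv1, -0.027 to 0.050 for Ndufs7, -0.091 to 0.14 for Ndufb7 and, for Ndufs4, -0.051 to 0.049.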
